A study of Mus musculus with 6 samples.

Results

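The genes described here encode the AMPA-type glutamate receptor and synaptic proteins that work beside it in Purkinje cells. They are 9 named rows of a gene count table of 23420 rows, with their splice junctions: the subunit genes Gria1, Gria2, Gria3 and Gria4, the auxiliary subunit genes Cacng2 and Cacng7, the scaffold genes Grip1 and Pick1, and Grid2ip, which codes for a scaffold of the parallel fibre synapse. All 9 passed the filter on low counts, among 16067 genes tested. The libraries held ribosome-bound RNA pulled down from the cerebella of 4-week-old C57BL/6 mice by BacTRAP, which recovers the RNA on tagged ribosomes made from a Pcp2 transgene. The 3 conditional knockout (cKO) mice carried Pcp2-BacTRAP, Pcp2-Cre, and a floxed allele with a null allele of Rbm17, a splicing factor of 3' splice sites. The 3 control mice carried Pcp2-BacTRAP and a floxed allele with a wild-type allele of Rbm17, and no Cre. Each library came from 1 cerebellum. Cre and the null allele were present in cKO only, so their effects and that of the deletion cannot be told apart.

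AMPA receptors are tetramers of the subunits GluA1 to GluA4, and they carry most of the fast excitatory current at central synapses. A receptor that holds edited GluA2 passes little calcium. In Purkinje cells GluA2 and GluA3 are prominent subunits, the TARP stargazin (Cacng2) brings receptors to the synapse, and GRIP1 and PICK1 bind the tails of GluA2 and GluA3 during synaptic plasticity. Bergmann glia express GluA1 and GluA4. Each Gria gene holds a pair of mutually exclusive exons, flop and flip, which code for a stretch before the last membrane segment and set how fast the receptor desensitises.

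In mm10 coordinates, the subunit genes are Gria1 (chr11:57011387-57330244, + strand), Gria2 (chr3:80681450-80802835, - strand), Gria3 (chrX:41400854-41678601, + strand) and Gria4 (chr9:4417896-4796234, - strand). The auxiliary subunit genes are Cacng2 (chr15:77991748-78120028, - strand) and Cacng7 (chr7:3332955-3368221, + strand). The others are Grip1 (chr10:119453830-120087261, + strand), Pick1 (chr15:79229173-79249484, + strand) and Grid2ip (chr5:143357338-143392152, + strand). Exon numbers below follow 1 GENCODE transcript per gene, which has 16 exons for Gria1, Gria2 and Gria3 and 17 for Gria4.

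The flop and flip exons of the 4 Gria genes are shown because their junction reads give the share of each form. They lie in this order in each gene, have 115 bases each, and are written from GENCODE transcripts of mouse build GRCm38 (mm10), with capitals for the bases that differ between flop and flip of the same gene.
Gria1 flop (chr11:57309769-57309883, + strand): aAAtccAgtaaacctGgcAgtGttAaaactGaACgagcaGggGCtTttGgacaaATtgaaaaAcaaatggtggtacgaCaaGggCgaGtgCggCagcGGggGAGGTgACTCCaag
Gria1 flip (chr11:57310608-57310722, + strand): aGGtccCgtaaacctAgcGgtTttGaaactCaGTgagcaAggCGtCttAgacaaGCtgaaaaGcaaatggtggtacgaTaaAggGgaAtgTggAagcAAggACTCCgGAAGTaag
Gria2 flop (chr3:80691320-80691434, - strand): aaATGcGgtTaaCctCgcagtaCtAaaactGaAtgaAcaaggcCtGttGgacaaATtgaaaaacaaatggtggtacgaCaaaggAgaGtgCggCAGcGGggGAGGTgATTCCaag
Gria2 flip (chr3:80690404-80690518, - strand): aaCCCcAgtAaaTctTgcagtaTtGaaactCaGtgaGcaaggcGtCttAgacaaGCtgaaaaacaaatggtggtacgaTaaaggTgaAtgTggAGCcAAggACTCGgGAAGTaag
Gria3 flop (chrX:41654810-41654924, + strand): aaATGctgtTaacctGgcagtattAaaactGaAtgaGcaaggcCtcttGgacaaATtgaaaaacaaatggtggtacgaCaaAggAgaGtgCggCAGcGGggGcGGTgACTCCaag
Gria3 flip (chrX:41669501-41669615, + strand): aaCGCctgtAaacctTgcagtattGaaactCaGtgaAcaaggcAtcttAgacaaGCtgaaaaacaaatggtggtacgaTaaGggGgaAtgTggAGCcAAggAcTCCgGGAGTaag
Gria4 flop (chr9:4432773-4432887, - strand): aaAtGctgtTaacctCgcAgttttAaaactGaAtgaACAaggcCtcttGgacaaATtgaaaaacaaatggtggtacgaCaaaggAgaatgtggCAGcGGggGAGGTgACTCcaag
Gria4 flip (chr9:4427030-4427144, - strand): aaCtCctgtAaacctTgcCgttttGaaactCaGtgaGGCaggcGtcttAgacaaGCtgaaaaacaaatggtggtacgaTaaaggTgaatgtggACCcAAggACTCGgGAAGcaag
Flop and flip of the same gene shared 68.7% to 73.0% of their bases, while the same exon in different Gria genes shared 87.8% to 94.8%. The differences between flop and flip are densest in the last bases of the exon, and a run past its middle is nearly free of them.

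Of the 9 genes, 4 fell in cKO libraries (Gria2, Gria3, Cacng2 and Grid2ip), 0 rose, and 5 were not called (edgeR's quasi-likelihood test, Benjamini-Hochberg adjusted over all genes tested, threshold 0.05). Over all genes 3.85% fell and 4.03% rose. The median log2 fold change, cKO over control, was -0.51 over the 9 genes, against 0.01 over all genes tested, whose quartiles were -0.19 and 0.24. The cKO and control libraries did not overlap for 5 of the 9 genes, against 28.4% of all genes. DESeq2 called 5 of the 9, against 2042 of the 16067 genes tested, in both directions together. At an unadjusted p under 0.05 in edgeR, none of the 9 rose.

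Gria2 codes for GluA2, the subunit that limits calcium entry. It had 135, 117 and 121 CPM, its count scaled by the library's TMM-adjusted total, in the cKO libraries, against 262, 256 and 236 CPM in the control libraries. Every cKO library lay below every control library, and the cKO mean was 49.4% of the control mean. The log2 fold change was -1.02 (SE 0.09, adjusted p = 2.9e-04).

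Gria3, which codes for GluA3, had 119, 115 and 121 CPM in the cKO libraries, against 262, 270 and 242 CPM in the control libraries. The groups stood far apart relative to the spread within them, at 118 ± 3.14 CPM in cKO and 258 ± 14.3 CPM in control (SD, n = 3 each). The log2 fold change was -1.13 (SE 0.08, adjusted p = 1.1e-04). Gria2 and Gria3 stayed called when any 1 library was left out.

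Gria1, which codes for GluA1, had 128, 191 and 181 CPM in the cKO libraries, against 195, 254 and 260.4 CPM in the control libraries. The groups did not overlap, but the highest cKO library came within a few CPM of the lowest control library. The log2 fold change of -0.51 (SE 0.16) did not pass the threshold (edgeR adjusted p = 0.085). DESeq2 called it (adjusted p = 0.011), as did edgeR without control replicate 1 (adjusted p = 0.034).

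Gria4, which codes for GluA4, had 160.0, 298 and 265 CPM in the cKO libraries, against 247, 300.1 and 358 CPM in the control libraries. The groups overlapped, and cKO replicate 1 was the lowest of the 6. The log2 fold change was -0.33 (SE 0.21, adjusted p = 0.41).

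Cacng2 codes for stargazin (TARP gamma-2), which carries AMPA receptors to the membrane and slows their closing. It had 146, 163 and 152 CPM in the cKO libraries, against 251, 209 and 207 CPM in the control libraries, with no overlap. The log2 fold change was -0.54 (SE 0.10, adjusted p = 0.011), and without cKO replicate 3 the adjusted p was 0.065. Cacng7 codes for TARP gamma-7, another AMPA receptor auxiliary subunit. It had 123, 139.6 and 131 CPM in the cKO libraries, against 121, 121 and 129.5 CPM in the control libraries. These ranges overlapped, and the log2 fold change was 0.08 (SE 0.09, adjusted p = 0.66).

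Grip1 and Pick1 code for PDZ proteins that hold GluA2 and GluA3 at internal membranes and the synapse or take part in their removal. Grip1 was the lowest of the 9, with 14.5, 11.5 and 12.5 CPM in the cKO libraries, against 14.8, 10.3 and 8.36 CPM in the control libraries (log2 fold change 0.20, SE 0.20, adjusted p = 0.63). Pick1 had 31.9, 30.3 and 33.8 CPM in the cKO libraries, against 31.3, 35.6 and 32.0 CPM in the control libraries (log2 fold change -0.04, SE 0.10, adjusted p = 0.86). The groups overlapped for both genes. Counts of Pick1 are uncertain because Gm49486 overlaps it on the same strand, and those of Grip1 because Helb and Grip1os lie antisense to it.

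Grid2ip codes for delphilin, a PDZ protein of the parallel fibre synapse. It had 105, 118 and 138 CPM in the cKO libraries, against 282, 211 and 187 CPM in the control libraries. The groups did not overlap and the control libraries spread more widely than the cKO libraries. The log2 fold change was -0.91 (SE 0.15, adjusted p = 0.0062). The gene Gm20635 lies antisense to its 3' end, so counts there are uncertain.

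**Figure D1:**
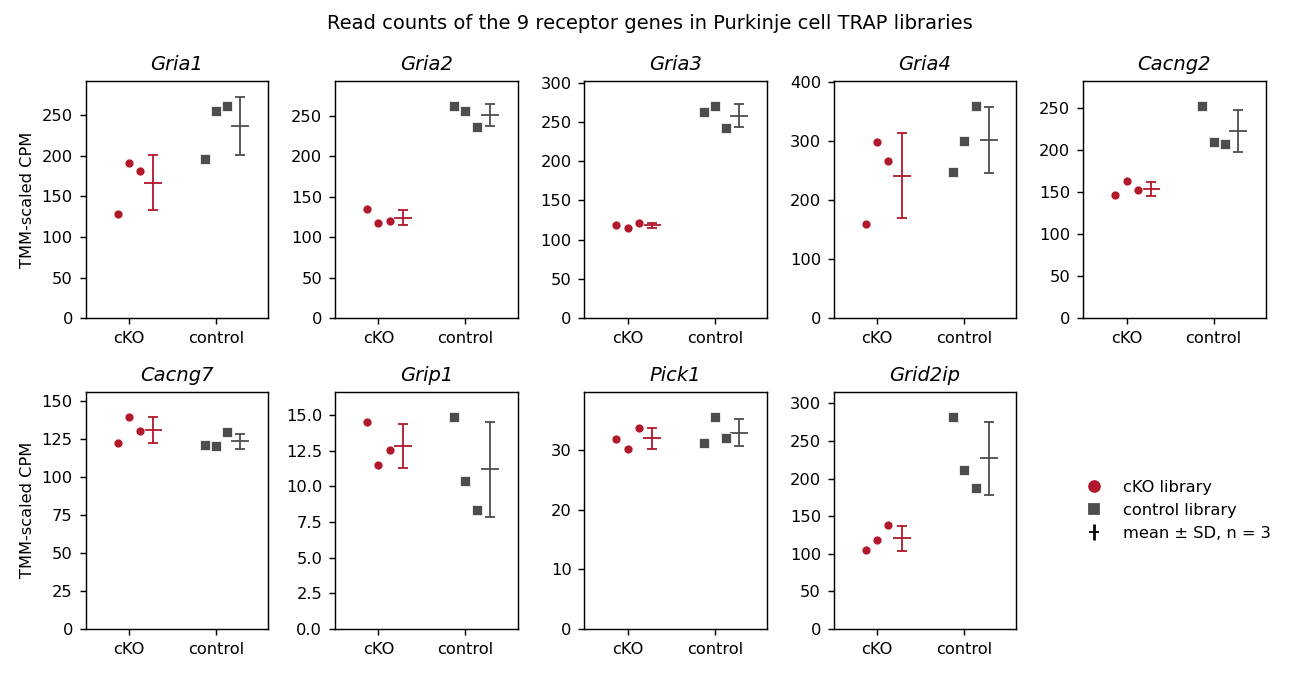
TMM-scaled CPM (y axis, from 0) of each of the 9 genes in the 3 cKO libraries (red circles, left) and the 3 control libraries (grey squares, right), with mean ± SD beside them. Every cKO point lies below every control point for Gria1, Gria2, Gria3, Cacng2 and Grid2ip, and the points overlap for Gria4, Cacng7, Grip1 and Pick1.

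The libraries also differed in cell type markers. Of 15 Purkinje cell markers 8 fell and 0 rose (median log2 fold change -0.57), and their summed level was 19009 to 22089 CPM in cKO libraries, against 31641 to 42081 CPM in control libraries. The 15 were detected in both groups, Skor2 at the lowest mean level, with 20.5 CPM in cKO and 27.9 CPM in control. In these bulk pulldowns, fewer Purkinje cells and less RNA per cell cannot be told apart. Of 13 Bergmann glia and astrocyte markers Gfap rose and Hopx and Slc4a4 fell, with sums of 1544 to 2042 CPM in cKO, against 2044 to 2527 CPM in control. Of 11 microglial markers 6 rose, with sums of 77.8 to 124.9 CPM in cKO, against 38.7 to 56.6 CPM in control. Sums overlapped for 10 granule cell markers (3073 to 4857 CPM in cKO, 3671 to 5057 CPM in control), 9 interneuron markers (644 to 664 CPM in cKO, 654 to 791 CPM in control), 8 oligodendrocyte markers (2123 to 3166 CPM in cKO, 2654 to 4046 CPM in control) and 5 precursor markers (81.4 to 105 CPM in cKO, 93.0 to 126 CPM in control), and of these Slc32a1 alone was called. Gad2 held 335 of the mean interneuron sum of 657 CPM in cKO and 364 of 711 CPM in control, so that sum rests largely on Gad2. Replicate 1 was the cKO library with the lowest sums of Purkinje cell, Bergmann glia, granule cell, oligodendrocyte and precursor markers and the highest sum of microglial markers, and also the one with the least Gria1 and Gria4. Its interneuron sum was the highest in cKO, at 664 CPM, against 644 and 663 CPM. The part of these markers in the changes of the receptor genes was not tested.

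Rbm17 itself had 25.7, 25.6 and 26.3 CPM in the cKO libraries, against 41.2, 42.5 and 41.3 CPM in the control libraries (log2 fold change -0.69, SE 0.09, adjusted p = 0.0016). Reads that join its exon 3 to exon 5 numbered 137, 106 and 136 in cKO and 3, 1 and 1 in control.

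Levels of different genes were compared per kilobase of exon, for the control libraries and without a test. Over the union of annotated exons the order was Cacng7 with 50.7 ± 2.04 CPM per kilobase, Gria4 with 47.9 ± 8.81, Cacng2 with 40.4 ± 4.54, Gria1 with 39.2 ± 5.95 and Grid2ip with 33.5 ± 7.24 (SD, n = 3). Gria3 with 26.2 ± 1.45 and Gria2 with 16.1 ± 0.87 followed, and Pick1 with 5.02 ± 0.35 and Grip1 with 1.39 ± 0.41 CPM per kilobase came last. From Cacng7 to Grid2ip, each gene lay within the larger SD of the next one in this order, while Gria3, Gria2, Pick1 and Grip1 each lay further than that below the gene before. Divided by the longest transcript in place of the exon union, Grid2ip led with 58.6 CPM per kilobase and Gria3 reached 49.6, so the order of the upper 6 genes depends on the length used.

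Within the 4 Gria genes, the makeup of the subunit RNA was compared as each gene's share of their summed counts per kilobase. Gria4 took 43.9 ± 5.46% in cKO and 36.8 ± 3.44% in control, and Gria1 took 32.1 ± 0.59% in cKO and 30.2 ± 1.81% in control. Gria3 took 14.4 ± 3.17% in cKO and 20.4 ± 2.78% in control, and Gria2 took 9.67 ± 2.82% in cKO and 12.6 ± 1.90% in control (SD, n = 3 each). No share passed an exact two-sided permutation test (p = 0.2 for Gria1, Gria3 and Gria4, p = 0.3 for Gria2), where 3 libraries against 3 can give no p below 0.1. These shares used the exon union as length, and their order depends on it. Divided by the longest transcript, Gria3 took 21.3% in cKO and 29.0% in control (exact permutation p = 0.2). Gria1 then took 27.4% in cKO and 24.7% in control (exact permutation p = 0.1). Each gene's difference kept its direction with either length.

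Flop was the minor form of Gria1, Gria3 and Gria4 and the major form of Gria2 in both groups. In Gria1, flop made up 14.5%, 3.63% and 7.04% of flop and flip reads in the cKO libraries, against 27.4%, 22.9% and 14.8% in the control libraries. The groups did not overlap, but cKO replicate 1 and control replicate 3 nearly met. The mean was 8.39 ± 5.56% in cKO and 21.7 ± 6.37% in control (SD, n = 3 each; exact permutation p = 0.1, the smallest possible).

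The reads behind this difference were those into and out of the flop exon of Gria1. Reads that join exon 13 to flop numbered 128, 49 and 106 in the cKO libraries, against 286, 376 and 243 in the control libraries. Reads that join exon 13 to flip numbered 856, 1401 and 1555 in the cKO libraries, against 798, 1373 and 1443 in the control libraries. Flop reads were thus lower in every cKO library while flip reads overlapped. In the test of each junction against the others of its cluster, over 112047 junctions, the flop junctions of Gria1 had adjusted p = 0.14 on the 5' side and adjusted p = 0.096 on the 3' side (edgeR diffSpliceDGE), so they were not called.

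In Gria4 the flop share was higher in cKO, with most of the difference in cKO replicate 1. Flop made up 31.4%, 20.9% and 21.8% in the cKO libraries, against 17.8%, 19.2% and 17.4% in the control libraries, with no overlap (24.7 ± 5.84% in cKO and 18.1 ± 0.90% in control; exact permutation p = 0.1). The flip share differed by -6.55 points between cKO and control, and by -3.18 points without cKO replicate 1. Its flop and flip junctions each had an adjusted p of 1 in the junction test.

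In Gria2, flop made up 64.2%, 60.5% and 59.6% in the cKO libraries, against 55.1%, 62.9% and 60.1% in the control libraries (exact permutation p = 0.5). In Gria3 it made up 25.8%, 19.5% and 13.9% in the cKO libraries, against 17.0%, 17.4% and 15.7% in the control libraries (exact permutation p = 0.5). Both genes overlapped between groups although their levels stood furthest apart among the Gria genes.

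A transcript that holds both exons joins flop directly to flip. Such reads numbered 40, 37 and 27 in the cKO libraries and 15, 30 and 21 in the control libraries for Gria2, and 50, 46 and 34 in cKO and 9, 69 and 17 in control for Gria3. They were near 0 for Gria1 and Gria4, at no more than 7 in any library. The groups overlapped for these read numbers in both Gria2 and Gria3. As a share of the reads leaving flop they did not: the share was 7.95%, 11.2% and 7.65% in the cKO libraries, against 2.32%, 3.38% and 2.82% in the control libraries for Gria2, and 18.4%, 21.8% and 20.4% in cKO, against 2.90%, 15.3% and 6.07% in control for Gria3. In the junction test, neither of these junctions was called (adjusted p = 0.34 for Gria2 and 0.30 for Gria3).

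The exon after flip and flop codes for the last membrane segment and the start of the tail, and in Gria2 and Gria4 reads left it from an inner and an outer donor site. It was looked at after its values were seen. In Gria2 it is exon 15 (chr3:80689103-80689351, - strand), shown here up to its stop codon, with capitals for the bases past the inner donor, which begin with GT. The inner donor leaves 135 bases of the exon and so skips this stop codon, and the outer donor keeps all 249.
Gria2 exon 15: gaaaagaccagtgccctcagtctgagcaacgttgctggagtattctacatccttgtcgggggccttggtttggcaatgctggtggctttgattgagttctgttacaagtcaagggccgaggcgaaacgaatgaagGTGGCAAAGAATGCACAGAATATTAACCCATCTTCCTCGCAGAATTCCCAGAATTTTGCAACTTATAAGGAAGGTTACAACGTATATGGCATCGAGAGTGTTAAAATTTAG

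Reads from the inner donor, which gives the long-tailed form of GluA2, numbered 144, 144 and 121 in the cKO libraries, against 95, 185 and 142 in the control libraries. Reads from the outer donor, which gives the common short-tailed form, numbered 501, 448 and 335 in the cKO libraries, against 1097, 1268 and 1123 in the control libraries. Short-tail reads were lower in every cKO library, while long-tail reads overlapped. The inner donor thus took 22.3%, 24.3% and 26.5% of these reads in the cKO libraries, against 7.97%, 12.7% and 11.2% in the control libraries.

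The means were 24.4 ± 2.11% in cKO and 10.6 ± 2.43% in control (SD, n = 3 each; exact permutation p = 0.1, the smallest possible), and the junction had adjusted p = 0.21 in the junction test. The outer-donor junction (chr3:80688715-80689102) was the one with the largest cluster share change of Gria2, at 16.9 ± 3.02% of its cluster in cKO and 23.0 ± 0.44% in control (adjusted p = 0.41). In Gria4 the inner donor of exon 16 took 76.9%, 94.5% and 89.0% in the cKO libraries, against 91.6%, 91.9% and 93.3% in the control libraries (exact permutation p = 0.4), and the difference of -5.49 points was -0.53 points without cKO replicate 1. The long-tail form was thus the major one of Gria4 and the minor one of Gria2 in every library.

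**Figure D2:**
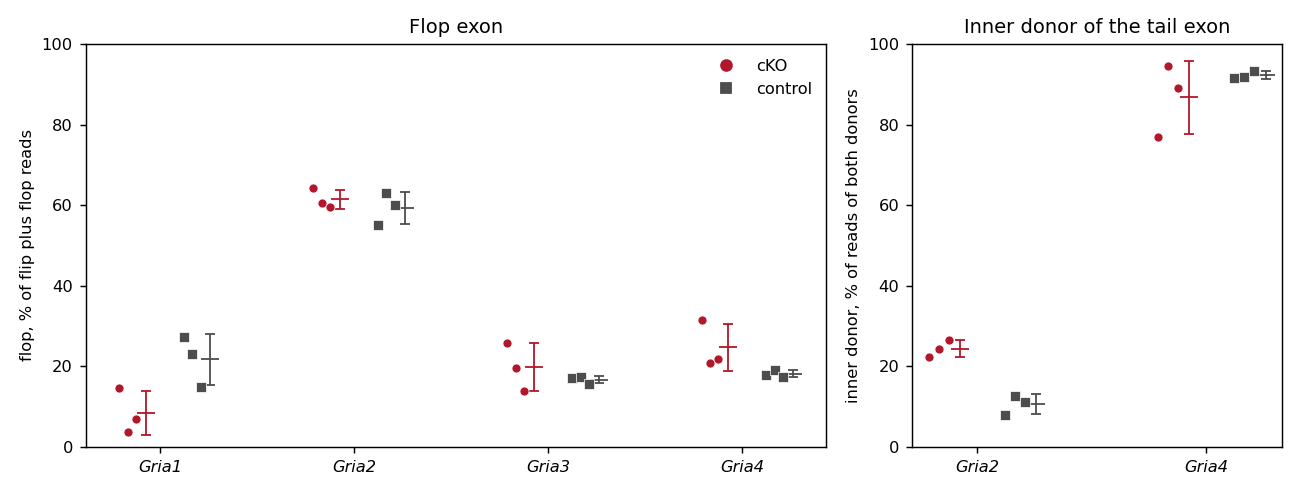
Share of flop in flop plus flip reads of the 4 Gria genes (left, %) and share of the inner donor of the exon after them in Gria2 and Gria4 (right, %), by library, with cKO in red circles left of control in grey squares and mean ± SD (n = 3). Flop of Gria1 and the inner donor of Gria2 are the pairs furthest apart, at 8.39% in cKO against 21.7% in control and at 24.4% in cKO against 10.6% in control.

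Of the 183 junctions of the 9 genes that were tested, 2 were called, 1 in Gria1 and 1 in Gria3, both higher in cKO. A call needed an adjusted p under 0.05 and a change of at least 5 percentage points in the junction's share of its cluster, and 0.751% of all junctions tested met it. With no minimum change, 6 of the 183 passed, against 2.27% of all junctions. Both counts are near these background shares. The 6 lay in Gria1, Gria2 and Gria3, and each was higher in cKO and absent from the GENCODE annotation. How many of all passing junctions had these traits is not given here. Over all junctions, unannotated ones held 2.03% to 2.13% of reads in cKO libraries, against 1.52% to 1.98% in control libraries.

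In Gria3, reads left exon 12 for an acceptor inside the next intron, 5.64 kb downstream (chrX:41620996-41626638, + strand). They numbered 136, 69 and 97 in the cKO libraries, against 0, 0 and 3 in the control libraries. Their share of all reads leaving exon 12 was 17.5%, 9.16% and 11.4% in the cKO libraries, against 0%, 0% and 0.23% in the control libraries. All 3 cKO libraries held the junction, and it was called with adjusted p = 7.9e-06. No junction led onward within 2000 bp of the acceptor.

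A further Gria3 junction joined exon 3 to exon 5 and left out exon 4 (chrX:41478800-41569887). It had 38, 4 and 29 reads in the cKO libraries and 0 in each control library, or 3.02 ± 1.90% of reads leaving exon 3 in cKO (SD, n = 3; adjusted p = 0.0042). It was seen in all 3 cKO libraries, with cKO replicate 2 far below the others, and its change in cluster share was too small for a call.

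In Gria1, reads left exon 2 for an acceptor 125 kb into an intron of 170.5 kb (chr11:57015292-57140155, + strand). They numbered 154, 62 and 52 in the cKO libraries, against 0, 5 and 0 in the control libraries. Their share of reads leaving exon 2 was 26.3%, 13.1% and 10.5% in the cKO libraries, against 0%, 0.96% and 0% in the control libraries. Replicate 1 was the highest cKO library here and the lowest in Gria1 counts. It was also the lowest in counts of Gria4, which had no junction that passed, and a link between junction and count was not tested. The junction was called with adjusted p = 8.1e-04, and no junction led onward within 2000 bp.

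In Gria2, reads left exon 2 for an acceptor 2.31 kb into the next intron (chr3:80799335-80801644, - strand). They numbered 76, 56 and 39 in the cKO libraries, against 9, 4 and 7 in the control libraries, or 2.99 ± 0.87% of reads leaving exon 2 in cKO and 0.23 ± 0.09% in control (SD, n = 3 each; adjusted p = 0.0037). The same donor also fed an unannotated exon of 69 bases (chr3:80780986-80781054). Reads into it numbered 32, 19 and 3 in the cKO libraries and reads out of it 24, 14 and 9, with 0 of either in each control library (adjusted p = 0.011 in and 0.021 out). These 3 Gria2 junctions were higher in every cKO library but held small shares of the reads. Reads out of the unannotated exon ended at a further unannotated acceptor (chr3:80777928). Exon 2 also reached that acceptor directly, with 84, 41 and 83 reads in cKO, against 90, 26 and 19 in control (adjusted p = 0.31). No junction led onward within 2000 bp of it or of the acceptor 2.31 kb into the intron. Another unannotated acceptor of exon 2 (chr3:80800746) had 37, 39 and 19 reads in cKO, against 61, 43 and 23 in control.

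**Figure D3:**
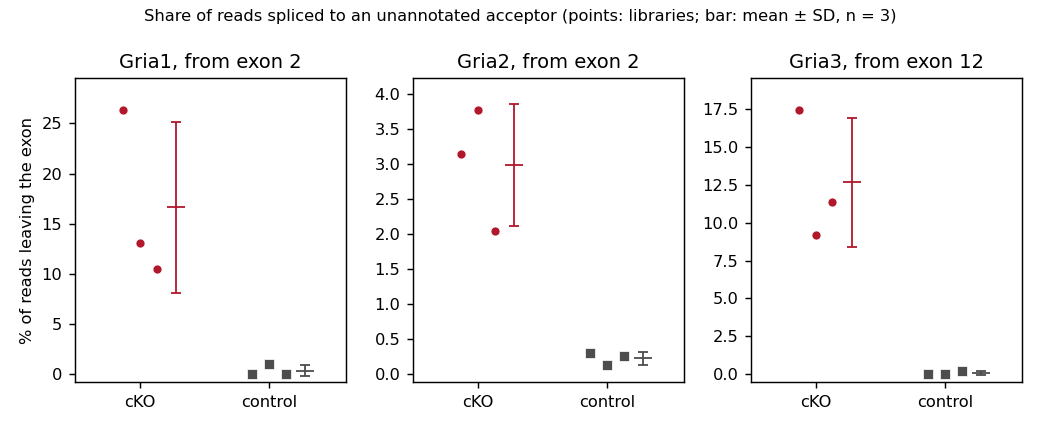
Share (%) of the reads leaving an exon that were spliced to its unannotated acceptor of smallest p in the junction test, in Gria1, Gria2 and Gria3. Libraries are shown with cKO in red circles left of control in grey squares and mean ± SD (n = 3). The cKO libraries reach 26.3% in Gria1, 3.78% in Gria2 and 17.5% in Gria3, and no control library exceeds 0.96% at these acceptors. Other unannotated acceptors, such as those of Gria2 exon 2 that control libraries also used, are not shown.

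Reads on unannotated junctions made up 3.78%, 4.04% and 2.75% of all Gria2 junction reads in the cKO libraries, against 1.73%, 1.65% and 1.66% in the control libraries. The Gria2 reads include those of the long-tail junction described above, which is not annotated. That junction had 144, 144 and 121 reads in cKO, against 95, 185 and 142 in control. The Gria2 share without it was not tested. For Gria3, reads on unannotated junctions made up 2.92%, 2.58% and 2.98% in cKO, against 1.50%, 1.42% and 1.16% in control. For Pick1 the share was 1.65%, 1.54% and 1.72% in cKO, against 0.19%, 1.15% and 0.64% in control. These 3 genes did not overlap between groups (exact permutation p = 0.1 each), while the shares of the other 6 overlapped. Of 7268 tested genes with a mean of at least 1000 junction reads per library, this share was higher in every cKO library than in every control library for 26.5% and lower in every cKO library for 2.26%, so 3 of 9 is near the background. Over all junctions of the libraries the share was 2.03% to 2.13% in cKO and 1.52% to 1.98% in control, also with no overlap.

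No junction of Gria4, Grid2ip, Grip1, Pick1, Cacng2 or Cacng7 passed the junction test at adjusted p under 0.05. Within Grid2ip, the largest change in cluster share was -19.8 points, for a junction into exon 3 from an alternative upstream exon (chr5:143370212-143372993; 167, 171 and 220 reads in cKO, against 495, 320 and 236 in control; adjusted p = 0.62). In Cacng2 it was also -19.8 points, for an unannotated junction near the 5' end (chr15:78118827-78119088; 51, 11 and 21 reads in cKO, against 43, 44 and 101 in control; adjusted p = 0.84). In Grip1 it was -23.3 points, for the junction from exon 9 to exon 11, which held 18.4 ± 8.26% of its cluster in cKO and 41.7 ± 18.8% in control (chr10:119978608-119986331; adjusted p = 1). The largest changes of Gria4, Pick1 and Cacng7 were at most 5.61 points in size, each with an adjusted p of 1.

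Junction reads along each gene were scaled by each library's total of them (RPM), and in Gria3 were compared before and after exon 12. This exon was chosen because the called unannotated junction leaves it, so the split is not independent of the junction test. Reads from exon 12 to exon 13 share their donor with that junction. Exon 14 is the flip exon, so the junctions into and out of it count flip only. The ratio of cKO to control lay between 0.57 and 0.65 at the 11 junctions before exon 12, and between 0.42 and 0.47 at the 4 junctions from exon 12 on. The mean of the later junctions over that of the earlier ones was 1.20, 1.99 and 1.80 in the cKO libraries, against 2.27, 2.41 and 2.32 in the control libraries. Every cKO library lay below every control library (exact permutation p = 0.1). The mean was 1.66 in cKO, or 1.89 without cKO replicate 1, and 2.33 in control.

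In Gria2 the ratio of cKO to control was 0.64 at the junction of exons 1 and 2 and 0.57 from exon 2 to exon 3. From exon 3 to exon 15 it lay between 0.46 and 0.57, where junctions into and out of exon 14 count flop only. It was 0.35 at the last annotated junction. That last junction counts short-tail reads only, because the long-tail junction of the same exon is not annotated. The mean of the junctions from exon 2 on, over that of exons 1 and 2, was 0.34, 0.39 and 0.42 in the cKO libraries, against 0.44, 0.46 and 0.51 in the control libraries, with no overlap (exact permutation p = 0.1). Exon 2 was chosen because raised unannotated junctions leave it, and only 1 junction lies before it. In Gria1 the same quotient around exon 2 was 0.49, 0.86 and 1.11 in the cKO libraries, against 0.83, 0.97 and 0.87 in the control libraries, and the groups overlapped. Apart from the flop junctions, the ratios of Gria1 lay between 0.69 and 0.87.

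Grid2ip had the opposite slope. Reads of its first annotated junctions, from exon 1 and exon 2, were few, with ratios of 1.61 and 1.07. Its ratio of cKO to control was 0.49 to 0.56 from exon 3 to exon 13, and rose along the transcript to 0.94 at the last junction, whose level averaged 8.86 RPM in cKO and 9.48 RPM in control. Its log2 ratio of 3' to 5' junction reads differed by 0.59 between cKO and control, while those of Gria2 and Gria3 differed by -0.45 and -0.51 (exact permutation p = 0.1 each). The difference in Gria3 was -0.28 without cKO replicate 1. That of Grip1 was -0.57, with libraries that overlapped (exact permutation p = 0.4). Those of Gria1 and Gria4 were 0.07 and -0.06, also with libraries that overlapped. Over 5414 genes with enough junctions, this difference had a median of 0.01 and had quartiles of -0.13 and 0.16. Of these genes, 3.14% lay at or below Grip1, 4.62% at or below Gria3, 5.74% at or below Gria2 and 97.2% at or below Grid2ip. The antisense gene Gm20635 overlaps the 3' end of Grid2ip.

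**Figure D4:**
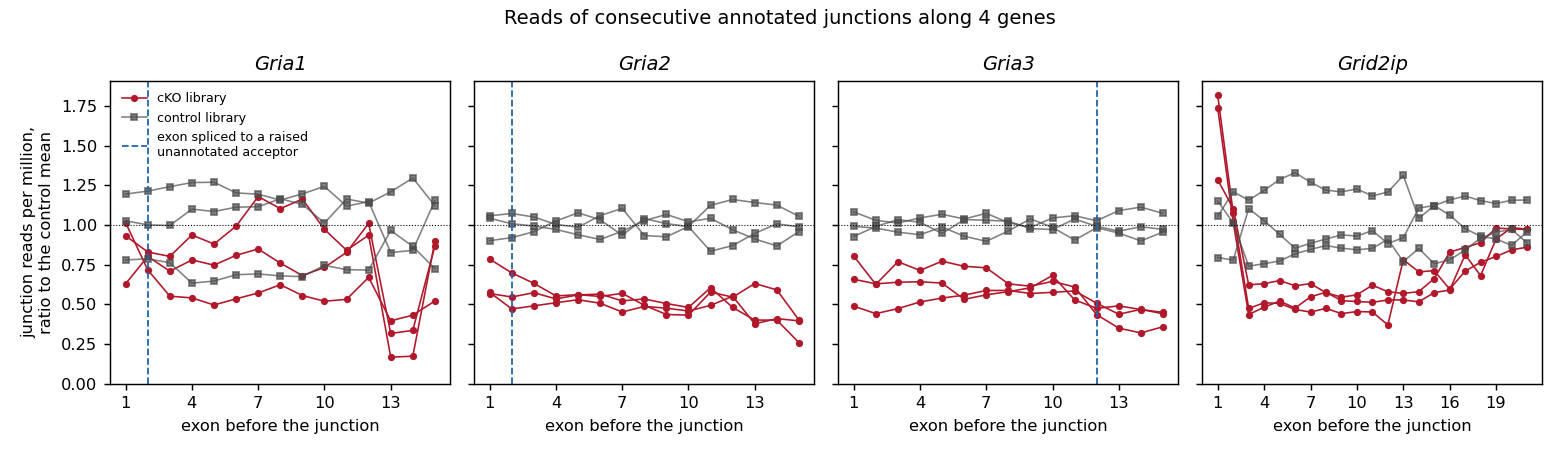
RPM of consecutive annotated junctions (x axis, exon before the junction) along Gria1, Gria2, Gria3 and Grid2ip, each divided by the mean of the control libraries (y axis), with 3 cKO libraries in red and 3 control libraries in grey. The blue dashed line marks the exon spliced to a raised unannotated acceptor. In Gria3 the mean cKO ratio is 0.57 to 0.65 before exon 12 and 0.42 to 0.47 from it on, in Grid2ip it climbs to 0.94 at the 3' end, and the dip in Gria1 is at its flop exon.

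Other genes of these pathways were taken from 3 lists. Of 17 AMPA receptor auxiliary and assembly genes, 1 rose and 3 fell (median log2 fold change -0.15). Cnih2, which codes for cornichon-2, an export partner of AMPA receptors, rose, with 72.1, 66.5 and 68.2 CPM in cKO and 46.2, 38.5 and 45.5 CPM in control (log2 fold change 0.67, SE 0.10, adjusted p = 0.0032). Shisa6, an auxiliary subunit that slows desensitisation, fell, with 575, 535 and 522 CPM in cKO and 1065, 851 and 792 CPM in control (log2 fold change -0.73, SE 0.12, adjusted p = 0.0044). The pentraxin gene Nptx1, whose product clusters AMPA receptors, and Frrs1l, which aids their assembly, fell by 0.55 and 0.40 on the log2 scale (adjusted p = 0.011 and 0.015). None of the 4 overlapped between groups, but they were named because they were called, and 28.4% of all genes did not overlap.

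Of 19 trafficking and anchoring genes, 18 were found in the table and tested. Of these Gripap1, which codes for a GRIP1 partner, rose (log2 fold change 0.38, SE 0.10, adjusted p = 0.0498) and 0 fell, with a median of -0.09. Of 14 other ionotropic glutamate receptor genes, 0 were called by edgeR and 0 by DESeq2, 3 had an unadjusted p under 0.05, and the median was -0.14. The highest among them were Grin1, the obligate NMDA receptor subunit gene, with 117, 162 and 145 CPM in cKO and 146, 172 and 170.1 CPM in control, and the kainate receptor gene Grik3, with 63.2, 104 and 90.7 CPM in cKO and 78.2, 87.9 and 115 CPM in control. Both overlapped between groups.

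The genes whose levels ran most like those of Gria2 over the 6 libraries, by root mean square difference in centred log2 CPM among 3996 genes, were Kctd9 (0.047), Atrnl1 (0.080) and Cacna2d2 (0.093), against a median of 0.50. For Gria3 they were Atrnl1 (0.045), Kctd9 (0.078) and Strn3 (0.088), against a median of 0.55. Atrnl1 had 62.9, 62.4 and 63.4 CPM in the cKO libraries, against 141, 142 and 119 CPM in the control libraries. Atrnl1 was picked by this likeness over the same libraries, so its gap between the groups is not a separate result.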

How the data were processed

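In each library, RNA from 1 cerebellum was amplified with random and poly(A) priming, so reads are not independent molecules, and errors describe these animals only. TopHat2 2.1.0 and HTSeq 0.6.0 with the build mm10 are named, per the submitters' processing notes, with the counting annotation and strand setting not given in the sources used here. Deposited were raw counts per gene and, in a junction list per library, read counts across each intron, per the file headers. Totals were 140110897 to 160571518 gene counts and 73457422 to 83976095 junction reads per library. The row Rn45s held 9.56% to 13.5% of gene counts.

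The gene test was edgeR 4.0.16 (R 4.3.3; filterByExpr, TMM, quasi-likelihood, no covariate). Junctions were kept from 10 reads in all and 2 libraries on, joined by shared donors or acceptors and tested with edgeR's diffSpliceDGE. Intron coordinates are 1-based, and GENCODE introns of the same build define annotated ones. Flop share is the mean of the 5' and 3' flop reads over flop plus flip. Both tests were tested on simulated data. The standard error is the log2 fold change over the root of F. The replicate numbers pair no animals: correlations of same-numbered deviations lay between -0.062 and 0.045. Alternatives were other scalings, filters, tools (DESeq2 1.42.0, limma 3.58.1), shares and left-out libraries. Some genes of related pathways are not reported here. The genes, lists and tests were chosen with earlier results of these data known. Named genes are the 9, the called members of each list or its 2 highest, called junctions or the 1 of largest share change (mean of at least 20 reads per library), and the 3 most alike genes of at least 50 CPM (0.5 CPM added before the log).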

Additional observations from a re-analysis of the deposited data

How the results depend on the processing

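Gria2, Gria3 and Grid2ip kept their direction and their call in each of the 14 alternatives run, and so did Cacng2 except without cKO replicate 3 (adjusted p = 0.065). Gria1 was called by DESeq2 and without control replicate 1. With the replicate number as a block, Gria1 was called (adjusted p = 0.0028), and no other call among the 9 genes changed, but the numbers share no animal. The block gave 1734 genes in all, against 1265 without it, and 777 junctions, against 842. DESeq2 called 2042 genes. Leaving out 1 library gave 530 to 1037 genes, 3 to 5 of the 9 genes, 516 to 697 junctions and 2 to 3 junctions of the 9 genes. Of all junctions, limma-voom called 2190, no minimum share change gave 2539 and a minimum of 10 points gave 436. Of the 183 junctions, limma-voom called 6, no minimum gave 6, and a share taken at the donor or acceptor, chosen after seeing the data, gave 3. The called Gria1 and Gria3 junctions stayed called in each of their 9 alternatives. The cause of these differences was not tested, apart from the lower or higher minimum, which sets its count. The exact tests on shares cannot pass 0.05 with 3 libraries a group. Junctions with few reads, such as those of Grip1, limit what can be seen.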
